A study of Mus musculus with 6 samples.

Results

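The genes described here encode the vacuolar H+-ATPase (V-ATPase), the proton pump of lysosomes, and proteins of the lysosomal membrane. They were listed by gene symbol for their roles, with earlier results of these data known. All 33 listed genes were found among the 27151 genes of the deposited table. They comprised 8 subunits of the cytosolic V1 sector, 6 subunits of the membrane V0 sector, 2 accessory subunits and 17 other lysosomal membrane genes. Symbols were matched to Ensembl identifiers with GENCODE release M21. Tmem55b is listed there as Pip4p1 and was matched through its RefSeq synonym. RNA came from mouse granulosa cells, which line the follicle and nurse the oocyte. They were released by puncturing follicles, grown for 24 h and deprived of serum for 12 h. For the next 24 h, with fresh medium every 12 h, they were kept without GSK4112 (control, 3 libraries) or with it (GSK4112, 3 libraries). GSK4112 activates NR1D1, also called REV-ERBα, a clock receptor that binds heme and silences its target genes. The strain, age and control vehicle were not found in the labels. The design text speaks of treatment in vivo, whereas the protocol describes cultured cells. No label says if each library was its own culture or animal, so p-values measure only how much these samples vary, and that spread may be technical.

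The V-ATPase uses ATP to pump protons into lysosomes and related organelles. Its V1 sector holds the catalytic head and the stalks, and its V0 sector holds the proteolipid ring and the large a subunit through which protons pass. The low pH drives soluble hydrolases and proton-coupled transporters of the lysosomal membrane. Heavily glycosylated LAMP proteins line the inner face of that membrane, and the Ragulator complex on its outer face anchors the nutrient-sensing kinase mTORC1. Steroid-making cells such as granulosa cells rely on lysosomes to release cholesterol from lipoproteins taken up by endocytosis. Transcription factors of the MiT/TFE family are known to control many lysosomal genes through the CLEAR motif, a palindrome around the E-box letters CACGTG.

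The steps between FPKM values (fragment counts scaled to exon length and library depth) implied 16559256 to 18158273 fragments per library. Of 15 granulosa cell markers, 13 had a mean of at least 1 FPKM over the 6 libraries. Amh and Cyp19a1 did not. The summed FPKM of the marker list ran from 3400 to 3990 in control and from 2462 to 3256 in GSK4112 libraries. Cyp11a1 (means of 751 and 418 FPKM), Inhba (335 and 124) and Inha (2036 and 1892) made up most of that difference. Hsd17b1 (64.3 and 25.3) and Fst (73.6 and 24.0) were called lower (adjusted p = 0.0187 for each in limma over all genes). Inhbb (14.3 and 4.21) and Serpine2 (72.8 and 42.3) lay below control in every GSK4112 library. With the replicate number as a block in limma, Inhba (adjusted p = 0.0266), Inhbb (0.00183) and Serpine2 (0.00926) were called lower too. So were 3.82% of all genes. Nr5a1 (38.8 and 37.9) and Amhr2 (56.6 and 59.8) differed little, and of the 13 only Amhr2 had a log2 difference above 0. In a bulk sample, fewer cells of a type and less RNA per cell cannot be told apart. The libraries numbered 1 stood apart from the rest in both groups. Their deviations from the group means correlated at 0.665 over genes, and control replicate 1 correlated at no more than 0.958 with the other control libraries, which correlated with each other at 0.982 (log2 values). GSK4112 replicate 1 correlated at 0.964 and 0.968 with the other GSK4112 libraries, which correlated at 0.991. Macrophages are rich in lysosomes. Their 12 markers summed to 43.0 FPKM in control replicate 1 and 40.5 in GSK4112 replicate 1. In the other libraries the sums were 14.6 and 8.09 (control) and 17.5 and 20.6 (GSK4112). Most of each sum was Lyz2 (4.29 to 34.2 FPKM), while Ptprc and Adgre1 stayed at or below 0.0678 and 0.130 FPKM. Cd68 ran from 2.20 to 4.47 FPKM in control and from 4.56 to 5.69 in GSK4112 libraries. Ptprc also lay above control in every GSK4112 library. Tyrobp (1.65 and 2.39 FPKM) and Csf1r (0.823 and 1.07) were highest in the libraries numbered 1. C1qa, C1qb, C1qc and Cx3cr1 had lower means in GSK4112 libraries, all at or below 0.607 FPKM in any library. Theca and stroma markers summed to 62.3 to 277 FPKM in control and 74.4 to 145 in GSK4112 libraries, again highest in those numbered 1. Most of each sum was Acta2 (44.5 to 234 FPKM), while the theca genes Cyp17a1 and Insl3 stayed at or below 0.0555 and 0.190 FPKM. Ogn alone of this list was called, with means of 10.7 and 1.91 FPKM (adjusted p = 0.0395 in limma). Markers of endothelium, oocyte and ovarian surface epithelium summed to at most 1.02, 4.11 and 8.36 FPKM in any library. The 5 luteal markers summed to 52.7 to 122 FPKM in control and 89.2 to 139 in GSK4112 libraries, with the lowest control and the highest GSK4112 sum in the libraries numbered 1. Of the 5, Lhcgr lay above control in every GSK4112 library (means of 4.88 and 13.5 FPKM, adjusted p = 0.285 in limma). Akr1c18 lay below control in every one (14.9 and 3.15, adjusted p = 0.163, and 0.00628 with the replicate number as a block). The groups overlapped in Star, Ptgfr and Prlr. The sums of the granulosa, macrophage, stroma and luteal lists moved with the group or the replicate number, and their part in the results below was not tested.

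Messages for the pump and for lysosomal membrane proteins lay higher with GSK4112 across all roles, by small amounts. Of the 33 members, 31 had a log2 difference above 0 (60.9% of all 12181 genes tested did). The median was 0.33 on the log2(FPKM + 1) scale, against 0.05 over all genes tested. Since members were chosen with earlier results of these data known, comparisons with all genes here and below describe the list only. Atp6v1b2 and Slc17a5 rose past the threshold, an adjusted p under 0.05 in limma over all genes. None fell, also at an unadjusted p under 0.05 and with limma-voom on recovered fragments. Over all genes 0.41% were called higher and 0.624% lower. With the replicate number as a block, 9 members rose (Atp6v1b2, Atp6v1h, Atp6v0b, Atp6ap2, Lamp2, Ctns, Slc17a5, Tmem55b and Clcn7) and none fell, against 3.07% of all genes called higher. No label gives a ground for this pairing, and calls with the block hold only if the numbers pair the libraries. GSK4112 replicate 2 deviated more like control replicate 3 (correlation 0.53) than control replicate 2 (0.326). GSK4112 replicate 3 deviated more like control replicate 2 (0.357) than control replicate 3 (0.213). Over all genes 3.82% were called lower with the block. With the block and median-of-ratios scaling 6 of the 9 passed, and Atp6v1h (adjusted p = 0.0711 in limma), Atp6ap2 (0.0674) and Ctns (0.0565) did not. Ctns also missed the threshold with the block and TPM scaling or quantile normalization. Without both libraries numbered 1 the count was 12 (3.17% of all genes). It was 13 with sample weights (3.86%) and 0 under median-of-ratios scaling (0.32%). It was also 0 when any single library was left out. Without control replicate 3, GSK4112 replicate 2 or GSK4112 replicate 3, 0 of all genes were called. Without control replicate 2, 2 genes were higher and 6 lower.

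**Figure D1:**
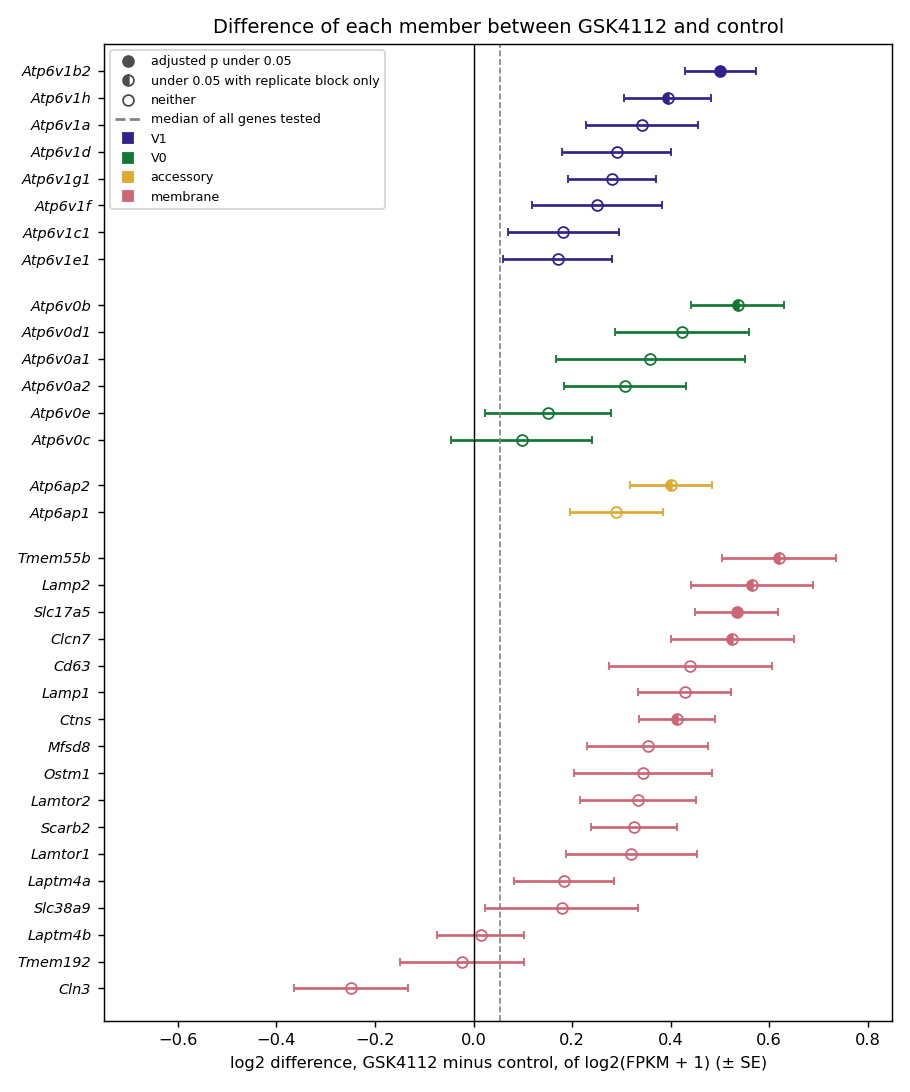
Difference of each member between GSK4112 and control on the log2(FPKM + 1) scale, with bars for the SE of limma, grouped by role. Filled points had an adjusted p under 0.05, points filled on the left only with the replicate block, and the dashed line is the median of all genes tested (0.05). Cln3 and Tmem192 lie below 0, Laptm4b lies near it, and Atp6v1b2 and Slc17a5 are filled.

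At an unadjusted p under 0.05, 22 members were higher, against 10.7% of all genes, and 0 were lower, against 6.21%. In 18 members every GSK4112 value lay above every control value (15.7% of all genes tested). Cln3 alone lay below control in that sense (7.9% of all genes), and the groups overlapped in 14. An exact permutation test of 3 against 3 libraries cannot give a p below 0.1. Within all 3 replicate numbers the GSK4112 library was the higher one in 26 members (29.8% of all genes). The filter on low values, a mean of at least 1 FPKM, removed none of them.

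The roles were alike in their medians and were not tested against each other, since genes are not replicates. The median log2 difference was 0.29 for V1, 0.33 for V0, 0.34 for the accessory subunits and 0.34 for the membrane genes. The V0 median depended on single control libraries, being 0.48 without control replicate 1 and 0.20 without control replicate 2. The SD of the log2 differences among members was 0.11 in V1, 0.17 in V0 and 0.23 in the membrane genes. The V1 genes summed to 427, 401 and 369.95 FPKM in control and 479, 470.1 and 506 in GSK4112 replicates 1, 2 and 3. The V0 genes summed to 184, 152 and 139.5 in control and 209.7, 197 and 208 in GSK4112. In both sectors the lowest GSK4112 sum lay above the highest control sum. The same held for the accessory genes (107 to 126 and 139 to 147) and the membrane genes (685 to 761 and 869 to 950.02). The V0 sums hold Atp6v0c at only 1.49 to 2.26 FPKM and leave out its near-identical copy Atp6v0c-ps2. That copy ran from 190 to 259 FPKM in control and from 225 to 298 in GSK4112 libraries, with overlapping groups. The V0 separation therefore holds only for the genes as listed. Sums are led by their most abundant genes. The members' differences varied with the replicate number. Their median was 0.17 between the libraries numbered 1, 0.36 between those numbered 2 and 0.43 between those numbered 3. Over all genes tested the medians were 0.04, 0.06 and 0.04. Control replicate 1 held the highest control value in 23 of 33 members, against 43.2% of all genes tested.

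**Figure D2:**
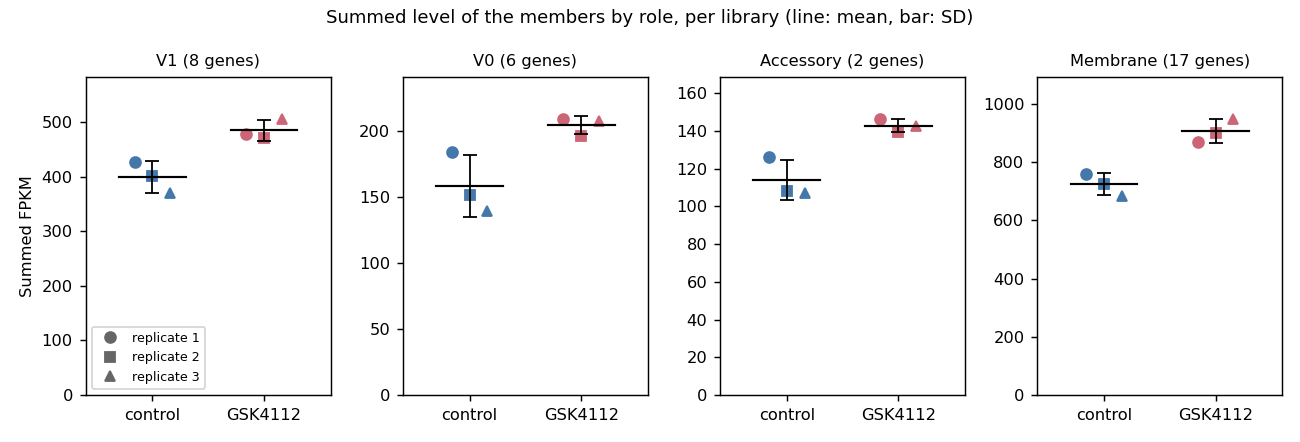
Summed FPKM of the members of each role in each library, with the mean as a line and the SD as a bar; symbols give the replicate number. In all 4 roles the 3 GSK4112 libraries lie above the 3 control libraries, and control replicate 1 is the highest control. The V0 sums leave out Atp6v0c-ps2.

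**Figure D3:**
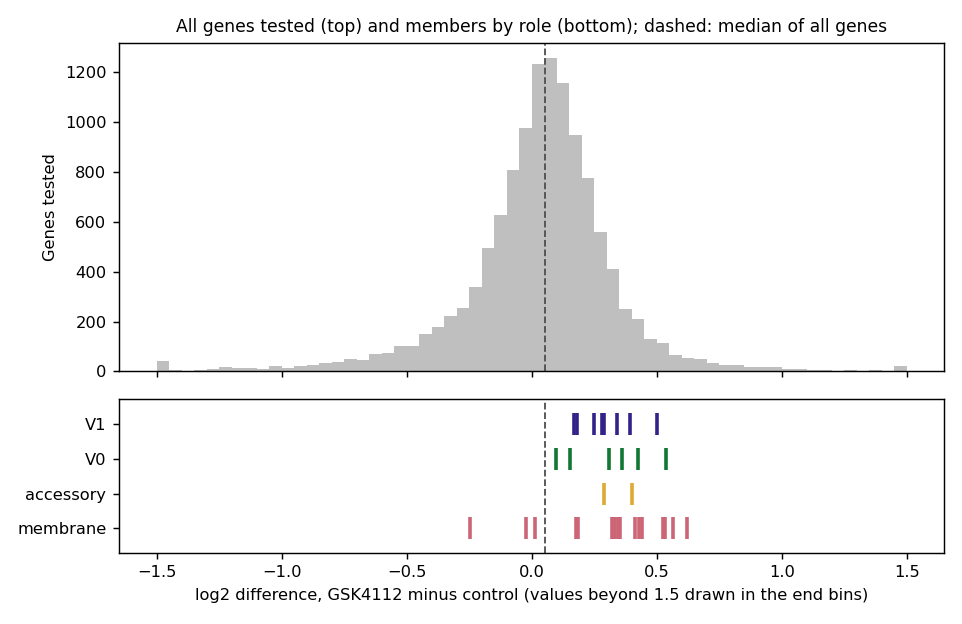
Distribution of the log2 difference over the 12181 genes tested (top, number of genes per bin) and the members as ticks by role (bottom); the dashed line is the median of all genes. The pump subunits all lie to the right of the dashed line, and 3 membrane members lie to its left.

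In the V1 sector all 8 members had a log2 difference above 0, and 1 was called. Atp6v1b2 (chromosome 8, 69088646 to 69113711, plus strand of GRCm38), which encodes the ubiquitous form of the B subunit in the ATP-hydrolysing head, was at 21.7, 23.2 and 22.0 FPKM in control replicates 1, 2 and 3. It was at 31.1, 31.7 and 33.1 in the GSK4112 libraries. The groups were well apart and the libraries numbered 1 did not stand out. Atp6v1b2 rose 1.43-fold in the mean, with a log2 difference of 0.50 ± 0.072 (SE) and an adjusted p of 0.0421 in limma (0.0229 with the block). Over the alternatives its log2 difference ran from 0.44 to 0.53. Its adjusted p ran from 0.0116 to 0.227.

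Atp6v1h encodes the H subunit, which links the head to the membrane sector and regulates the pump. It was at 22.6, 20.8 and 19.4 FPKM in control and 29.5, 26.2 and 27.7 in GSK4112 libraries. Its groups did not overlap either, and it passed with the block (0.39 ± 0.0884, adjusted p = 0.0994 in limma and 0.0451 with the block). It missed the threshold with the block and median-of-ratios scaling, and without both libraries numbered 1 (0.0526). Atp6v1a, the catalytic A subunit, was at 26.4, 24.5 and 22.5 in control and 35.8, 30.5 and 27.8 in GSK4112 libraries. In both groups the library numbered 1 was the highest (adjusted p = 0.211).

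The most abundant V1 message was Atp6v1g1, a subunit of the peripheral stalks, at 147, 140.02 and 126 FPKM in control. It was at 164, 166 and 171 in GSK4112 libraries. The groups did not overlap, but the difference was not called (0.28 ± 0.0892, adjusted p = 0.192). Part of its transcript (31.5%) matches other genes at 95% identity or more, so its level is uncertain. Gm13453, its longest match, held 1.26 to 3.85 fragments per 1000000. With these added, the GSK4112 mean was 1.22 times the control mean (1.21 without), and the groups still did not overlap. The remaining V1 members had overlapping groups. Atp6v1f, of the central stalk, ran from 79.2 to 94.6 FPKM in control and from 90.4 to 118 in GSK4112 libraries, with 25.1% of its transcript matched elsewhere. Atp6v1e1, of the peripheral stalks, ran from 48.8 to 62.0 and from 57.6 to 66.3, the smallest V1 difference (0.17). Atp6v1c1 ran from 33.1 to 38.9 and from 37.3 to 45.9, and Atp6v1d, of the central rotor, from 17.5 to 22.1 and from 21.7 to 24.7. Their adjusted p ran from 0.255 to 0.481.

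**Figure D4:**
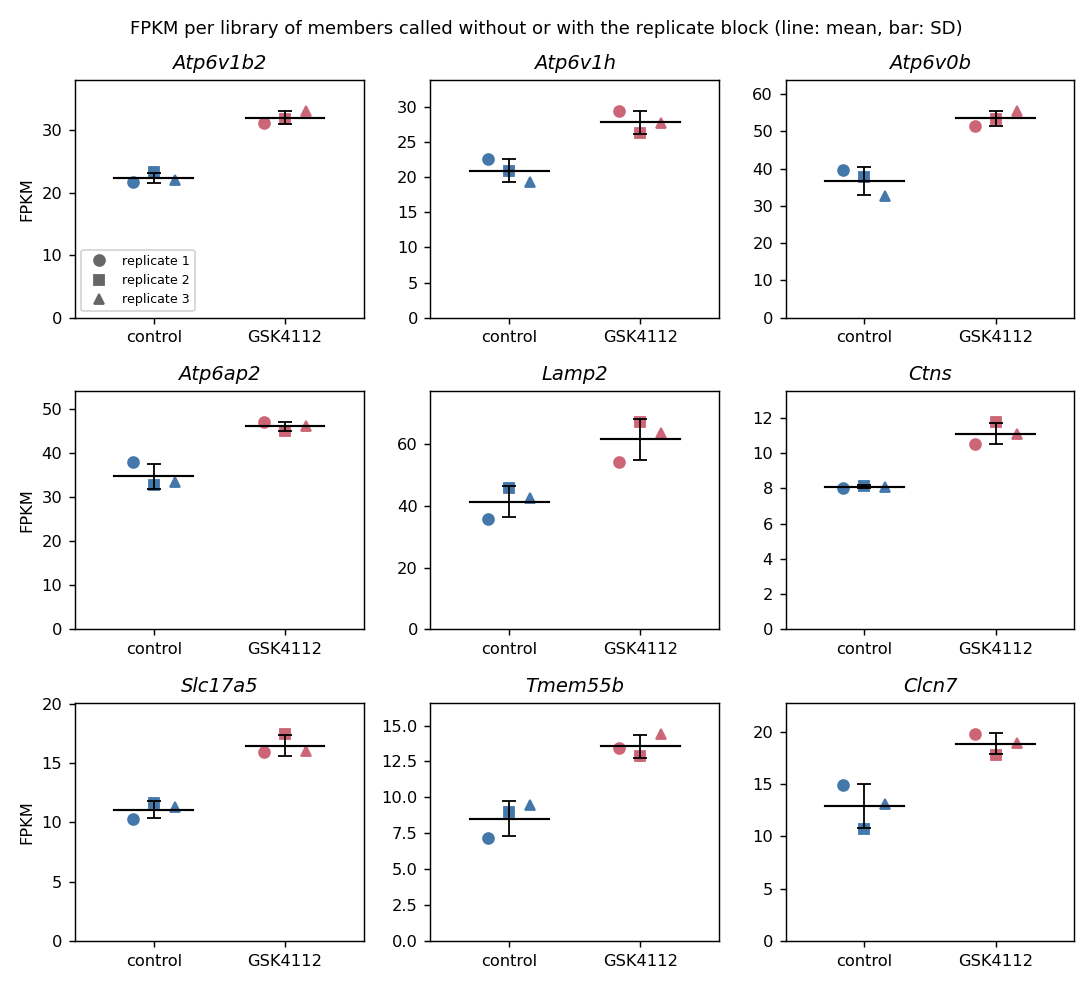
FPKM in each library of the 9 members called without or with the replicate block, with the mean as a line and the SD as a bar; symbols give the replicate number. In all 9 the lowest GSK4112 value lies above the highest control value.

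In the V0 sector all 6 members had a log2 difference above 0 and none was called over all genes. Atp6v0b, which encodes the c'' proteolipid of the ring (chromosome 4, 117884326 to 117887333, minus strand), was at 39.6, 37.8 and 32.6 FPKM in control. It was at 51.5, 53.3 and 55.5 in GSK4112 libraries, above control in every library. Exons of Gm12841, listed at 0 to 0.179 FPKM, overlap 11.8% of its exon length. This was the largest V0 difference (0.54 ± 0.0947, adjusted p = 0.0606, and 0.0356 with the block). Atp6v0d1, the d subunit that couples the ring to the rotor, was at 64.1, 50.5 and 44.7 in control and 71.1, 68.3 and 73.0 in GSK4112 libraries. Its control replicate 1 lay close to the GSK4112 values (adjusted p = 0.194). Without both libraries numbered 1, Atp6v0d1 was called (0.56, adjusted p = 0.0314). With any single library left out it was not (lowest adjusted p = 0.0567 in limma).

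The a subunit holds the proton channels and directs the pump to its organelle. Atp6v0a2 was at 16.3, 12.1 and 14.9 FPKM in control and 19.8, 17.5 and 16.8 in GSK4112 libraries. The groups did not overlap, but their edges were close (adjusted p = 0.281). Exons of 4930404A12Rik overlap 9.86% of its exon length. Atp6v0a1 was at 18.7, 10.7 and 12.7 in control and 19.5, 17.6 and 16.6 in GSK4112 libraries, overlapping through control replicate 1 (adjusted p = 0.396, and 0.048 without both libraries numbered 1). With any single library left out its lowest adjusted p in limma was 0.0761. Atp6v0e, a small subunit of the membrane sector, ran from 33.0 to 43.9 and from 38.4 to 45.6 (adjusted p = 0.589).

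Atp6v0c, the proteolipid that makes up most of the ring, was listed at only 1.73, 1.49 and 1.62 FPKM in control and 2.26, 1.61 and 1.56 in GSK4112 libraries. The gene Atp6v0c-ps2, annotated as a processed pseudogene, was listed at 259, 190.3 and 191 FPKM in control and 298, 225 and 248 in GSK4112 libraries. Over 465 bases, its whole length, the Atp6v0c transcript is 99.8% identical to it. Reads of the pair cannot be told apart there, so the level of Atp6v0c is uncertain. Added together, the pair held 126, 93.5 and 94.1 fragments per 1000000 in control. In GSK4112 libraries they held 146, 110.2 and 121. The groups overlapped through control replicate 1, and neither gene was called (adjusted p = 0.768 for Atp6v0c and 0.453 for Atp6v0c-ps2).

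Most V-ATPase subunits with several isoforms were expressed almost wholly as the listed form. The isoform genes Atp6v1c2, Atp6v1e2 and Atp6v0a4 were at most 0.0529, 0.0598 and 0.0476 FPKM in any library, and Atp6v1g2 and Atp6v0d2 at most 1.35 and 1.13. The a subunit was shared between 3 genes. In control, Atp6v0a1 held 35.8% ± 4.52 (SD, n = 3), Atp6v0a2 37.4% ± 2.80 and Tcirg1 26.8% ± 4.33 of their summed FPKM. In GSK4112 libraries these shares were 37.8% ± 0.513, 38.1% ± 0.195 and 24.1% ± 0.607, within the spread of the controls. Subunit e was shared between Atp6v0e and Atp6v0e2. Atp6v0e2 was at 49.4, 49.6 and 53.7 FPKM in control and 42.1, 40.1 and 45.9 in GSK4112 libraries, below control in every library but not called (-0.25 ± 0.084, adjusted p = 0.214). Its share of the pair was 56.9% ± 4.60 in control and 49.9% ± 1.69 in GSK4112 libraries.

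**Figure D5:**
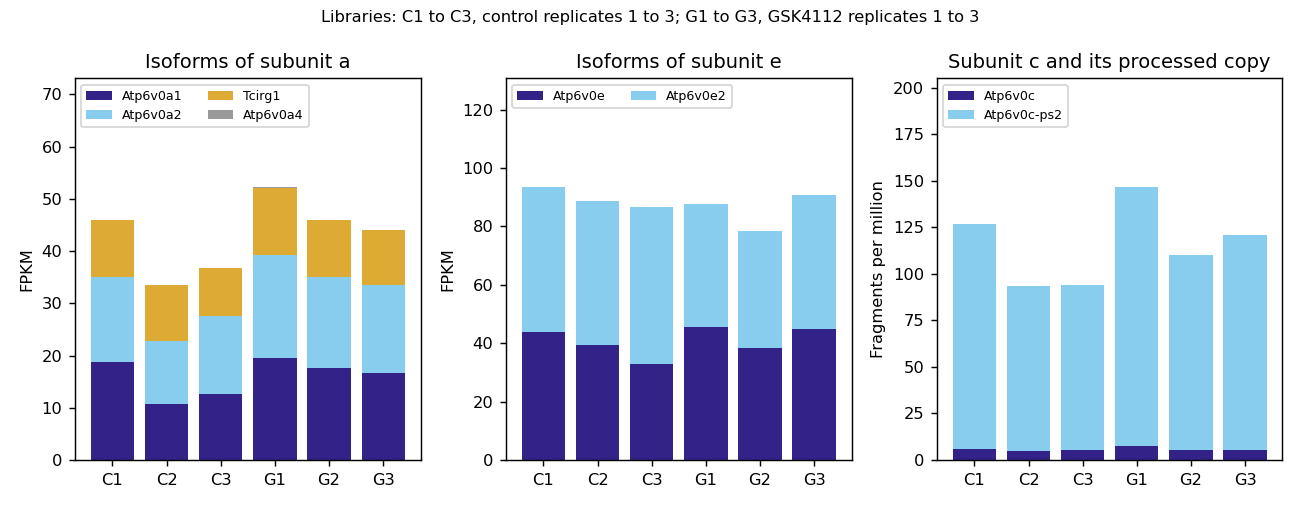
FPKM of the isoforms of subunit a (left) and subunit e (middle) in each library, and fragments per 1000000 listed under Atp6v0c and Atp6v0c-ps2 (right); C1 to C3 are control and G1 to G3 GSK4112 replicates. In the left panel 3 genes share subunit a in every library, Atp6v0a4 is too low to be seen, and nearly all fragments of the right pair are listed under Atp6v0c-ps2.

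Both accessory subunits lay above control in every GSK4112 library. Atp6ap2, the prorenin receptor, which is needed for assembly of the pump, was at 37.9, 32.8 and 33.3 FPKM in control. It was at 46.9, 45.1 and 46.0 in GSK4112 libraries (0.40 ± 0.0836, adjusted p = 0.0865, and 0.0450 with the block). Of its transcript, 18.8% matches another gene at 95% identity or more. Atp6ap1, its partner in assembly, was at 88.4, 75.6 and 74.1 in control and 99.7, 94.3 and 96.8 in GSK4112 libraries (0.29 ± 0.0941, adjusted p = 0.201). In both genes control replicate 1 was the highest control.

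Among the 17 membrane genes, 15 had a log2 difference above 0 and 1 was called. Lamp1 and Lamp2 encode the main glycoproteins of the lysosomal membrane. Lamp1 (chromosome 8, 13159161 to 13175338, plus strand) was at 172, 155 and 152 FPKM in control and 203, 214 and 229 in GSK4112 libraries. Lamp2 was at 35.9, 45.7 and 42.5 in control and 54.1, 67.0 and 63.6 in GSK4112 libraries. Exons of Grtp1, listed at 2.13 to 2.92 FPKM, overlap 9.31% of the Lamp1 exon length. The groups did not overlap in either gene, and in Lamp2 the libraries numbered 1 were the lowest of both groups. Lamp2 passed with the block (0.56 ± 0.124, adjusted p = 0.0952 in limma and 0.0163 with the block) and also without both libraries numbered 1 (0.0245). Lamp1 missed the threshold (0.43 ± 0.0944, adjusted p = 0.0958 in limma and 0.0758 with the block) but passed without both libraries numbered 1 (0.0339), with sample weights and with the block after quantile normalization. With any single library left out, the lowest adjusted p in limma was 0.0801 for Lamp2 and 0.0814 for Lamp1.

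Tmem55b, a lysosomal protein that takes part in the positioning of lysosomes along microtubules, had the largest difference of the 33. It was at 7.14, 8.97 and 9.45 FPKM in control and 13.4, 12.8 and 14.4 in GSK4112 libraries, a 1.59-fold higher mean (0.62 ± 0.115, adjusted p = 0.0676, and 0.0223 with the block). Exons of Apex1 overlap 19.5% of its exon length, and the strand setting is not stated, so part of its reads may belong to that gene. Apex1 itself was at 11.7 to 13.0 FPKM in control and 10.3 to 12.0 in GSK4112 libraries. Scarb2, the receptor that brings beta-glucocerebrosidase to lysosomes, was at 16.9, 16.1 and 16.5 in control and 19.0, 22.8 and 21.1 in GSK4112 libraries. Its groups did not overlap, but the difference was not called (0.33 ± 0.0875, adjusted p = 0.138).

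Cd63, a tetraspanin of late endosomes and lysosomes, was at 122, 86.0 and 80.5 FPKM in control and 134, 118 and 134 in GSK4112 libraries. The groups overlapped because control replicate 1 lay above GSK4112 replicate 2 (adjusted p = 0.251). Without both libraries numbered 1 it was called (0.59, adjusted p = 0.0302). With any single library left out it was not (lowest adjusted p = 0.0551 in limma). Its transcript matches the pseudogene Cd63-ps over 73.2% of its length at 95% identity or more. Cd63-ps was listed at 22.0 to 36.6 FPKM in control and 33.7 to 42.9 in GSK4112 libraries, and the level of Cd63 is uncertain.

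A few membrane members did not share the upward shift. Cln3, a membrane protein lost in juvenile Batten disease, was at 5.95, 7.92 and 6.30 FPKM in control and 5.29, 5.70 and 5.40 in GSK4112 libraries. It was the one member with every GSK4112 value below control, and it was not called (-0.25 ± 0.115, adjusted p = 0.339). Its transcript matches Apobr over 13.8% of its length. Tmem192, a lysosomal membrane protein often used as a tag for isolating lysosomes, ran from 12.4 to 16.3 in control and from 12.9 to 15.8 in GSK4112 libraries (-0.02, adjusted p = 0.946). Its sign turned with sample weights and without both libraries numbered 1. Laptm4b ran from 35.3 to 38.0 and from 33.5 to 39.1 (log2 difference 0.01 with a sign that turned under median-of-ratios scaling, adjusted p = 0.955). Its paralog Laptm4a was the most abundant of the 33, at 235, 260.1 and 236 FPKM in control and 252, 284 and 295 in GSK4112 libraries (0.18 ± 0.102, adjusted p = 0.415). A match at 95% identity or more covers 36.0% of the Laptm4b transcript, so its level is uncertain.

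All 6 genes of transporters and channels had a log2 difference above 0 (median 0.38), 1 was called, and 3 were with the block. Slc17a5 (chromosome 9, 78536488 to 78588041, minus strand) encodes sialin, which exports sialic acid from lysosomes. It was at 10.2, 11.7 and 11.3 FPKM in control and 16.0, 17.5 and 16.0 in GSK4112 libraries. Slc17a5 rose 1.49-fold in the mean (0.53 ± 0.0842, adjusted p = 0.0477, and 0.0198 with the block), and over the alternatives its log2 difference ran from 0.48 to 0.57. Its adjusted p ran from 0.0151 to 0.242. Ctns encodes cystinosin, the exporter of cystine. It was at 8.02, 8.17 and 8.10 in control and 10.5, 11.8 and 11.1 in GSK4112 libraries, with controls that hardly differed (0.41 ± 0.0772, adjusted p = 0.0683, and 0.0402 with the block).

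Clcn7 and Ostm1 encode the chloride-proton exchanger of lysosomes and its beta subunit. Clcn7 was at 14.9, 10.7 and 13.1 FPKM in control and 19.8, 17.8 and 19.0 in GSK4112 libraries (0.53 ± 0.125, adjusted p = 0.110, and 0.0282 with the block). Its groups did not overlap. Ostm1 was at 12.9, 9.48 and 9.94 in control and 15.9, 13.1 and 12.6 in GSK4112 libraries, overlapping through control replicate 1 (adjusted p = 0.287, and 0.0636 with the block).

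The 2 transporter genes with the lowest levels were Mfsd8 and Slc38a9. Mfsd8, a lysosomal membrane protein mutated in a form of Batten disease, was at 1.70, 1.51 and 1.95 FPKM in control and 2.33, 2.75 and 2.35 in GSK4112 libraries, from 246 to 428 fragments a library, and 15.7% of its transcript matches other genes. Its groups did not overlap (0.35 ± 0.123, adjusted p = 0.224). Slc38a9, the arginine sensor upstream of mTORC1, ran from 1.91 to 2.76 in control and from 2.27 to 3.30 in GSK4112 libraries (adjusted p = 0.598).

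Both listed Ragulator members were higher within each replicate number and neither was called. Lamtor3, Lamtor4 and Lamtor5 of the complex are not members and were read with the other lists below. Lamtor3 had means of 12.1 and 18.8 FPKM in control and GSK4112 libraries (adjusted p = 0.0714 in limma, and 0.0199 with the block). Lamtor4 had means of 21.4 and 27.1 (0.211), and Lamtor5 of 46.4 and 47.7 (0.872). Lamtor2 was at 36.1, 28.1 and 28.4 FPKM in control and 39.0, 36.4 and 41.4 in GSK4112 libraries, groups that just did not overlap (0.33 ± 0.118, adjusted p = 0.229). Lamtor1, the lipid-anchored member that holds the complex on the membrane, was at 25.6, 20.5 and 18.2 in control and 28.3, 24.6 and 27.5 in GSK4112 libraries. It overlapped through control replicate 1 (adjusted p = 0.292). Other transcripts match 43.4% of the Lamtor1 transcript at 95% identity or more, and exons of Lrrc51 overlap it.

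The other genes of the pathway were read from 3 lists. Of 29 tested genes of other lysosomal membrane proteins, 3 rose and none fell (0.41% and 0.624% over all genes). Their median was 0.29, against 0.05 over all genes, and 27 were above 0 (60.9% of all genes). With the block 6 rose and none fell (3.07% and 3.82% over all genes). Mcoln1, the lysosomal calcium channel, rose from 8.58 ± 0.334 (SD, n = 3) to 14.7 ± 0.799 FPKM (log2 difference 0.71, adjusted p = 0.0224 in limma). Npc1, which exports cholesterol, rose from 9.24 ± 0.602 to 15.5 ± 1.30. Gpnmb, a glycoprotein of lysosomes and melanosomes, rose from 9.67 ± 3.43 to 28.6 ± 1.69. The most abundant of that list, Pttg1ip (92.9 ± 7.95 and 97.5 ± 4.70) and Sidt2 (67.0 ± 11.3 and 68.2 ± 12.2), were not called.

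Genes for assembly and regulation of the pump had a median near that of all genes. Of 12 tested genes none passed the threshold, nor did any with the block. At an unadjusted p under 0.05, 1 was higher and 0 were lower (10.7% and 6.21% over all genes), and limma-voom called 0. Their median was 0.03, against 0.05 over all genes. The most abundant were Tmem9 (37.1 ± 3.45 and 33.3 ± 2.83 FPKM) and Tmem199 (15.8 ± 2.42 and 18.3 ± 1.96), a factor for assembly of V0. Of 11 genes of other V-ATPase subunits and isoforms, 9 were in the table and 4 passed the filter. These 4 all missed the threshold, also with the block. At an unadjusted p under 0.05, 0 were higher and 1 was lower (again 10.7% and 6.21% over all genes), and limma-voom called 0. The most abundant were Atp6v0e2 (above) and Tcirg1, the a3 isoform known from osteoclasts (10.2 ± 0.961 and 11.5 ± 1.30). The differences between the lists were not tested.

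Promoters of the members were read for E-box letters, since the CLEAR motif is known from lysosomal genes. A higher share among lysosomal genes was therefore to be foreseen, and it does not bear on GSK4112. RefSeq promoter windows of GRCm38.p6, from 250 bases before the start to 50 after it, were at hand for 27 of the 33. The letters CACGTG, a palindrome and so the same on both strands, were in a window of 9 of the 27 (33.3%) and in 12.4% of 8781 tested genes with a window. Of all 32851 windows 7.15% held them. The longer TCACGTGA, which contains CACGTG, was in 6 of 27 (22.2%), against 2.44% of those genes and 0.974% of all windows. The full GTCACGTGAC was in 1 (Cln3) and in 0.911% of those genes. The stretches below are shown because they hold these letters in V1, V0 and membrane members, and in Lamp1 hold them 4 times. Each reads 5′ to 3′ on the gene's strand, and capitals mark CACGTG.
Lamp1: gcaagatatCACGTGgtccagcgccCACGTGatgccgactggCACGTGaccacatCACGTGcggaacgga
Tmem55b: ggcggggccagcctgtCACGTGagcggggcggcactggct
Atp6v0b: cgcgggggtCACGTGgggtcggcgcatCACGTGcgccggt
Atp6v1a: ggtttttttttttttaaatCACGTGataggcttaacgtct
Lamtor1: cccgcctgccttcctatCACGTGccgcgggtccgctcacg

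The Lamp1 stretch lies at chr8:13159091-13159160 on the plus strand and ends 1 base before the start. The Tmem55b stretch lies at chr14:50930880-50930919 on the minus strand, 70 to 31 bases before the start. The Atp6v0b stretch lies at chr4:117887335-117887374 on the minus strand, 45 to 6 bases before it. None of these 3 lies within an annotated gene. The Atp6v1a stretch, at chr16:44139370-44139409 on the minus strand and 150 to 111 bases before the RefSeq start, lies inside the longer GENCODE gene model but in no exon. The Lamtor1 stretch, at chr7:101905752-101905791 on the plus strand and 85 to 46 bases before the start, lies in no exon but within the gene Tomt. A match describes letters only, and a window without one says no more than that the letters are not in it. The 9 members with CACGTG had a median log2 difference of 0.42, from -0.25 (Cln3) to 0.62 (Tmem55b), and the other 18 with a window had a median of 0.33. Slc17a5, one of the 2 called members, has a window without these letters. Atp6v1b2, the other, had no window in the table.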

How the data were processed

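Genes were quantified as FPKM by the authors, and the deposited table holds these values for 3 control and 3 GSK4112 libraries. The submitters' processing notes name GRCm38 as build; aligner, counting program, annotation and strand setting are not stated in the labels or header. Columns were matched to samples by name. Symbols and exon lengths came from GENCODE M21 (27098 of 27151 identifiers). FPKM times exon length gave library totals at which 92.8 to 93.1% of values below 500 fragments, and 90.4 to 90.7% of all values, were whole within 0.01.

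The 12181 genes whose mean reached 1 FPKM entered limma 3.58.1 (R 4.3.3) as log2(FPKM + 1). The test was two-sided with a variance trend, and a call needed a Benjamini-Hochberg adjusted p under 0.05. This scale understates changes of low genes. SE are those of limma. Same-numbered libraries deviated together (correlations 0.665, 0.326 and 0.213, each over 0.1). Values with the replicate number as a block therefore stand beside the calls of members and markers that they change. For the other lists the block is mostly given as counts. The pairing by number comes from the data: GSK4112 replicate 2 correlated better with control replicate 3 (0.53), and GSK4112 replicate 3 with control replicate 2 (0.357). Deviations from a group mean cancel out, so outlying libraries numbered 1 can alone make the correlations among numbers 2 and 3 positive. Member transcripts were compared with all others with BLAST 2.17.0 (matches of at least 200 bases and 95% identity). Members and lists were chosen with earlier results of these data known. Values per library are given for members called with or without the block, with groups that do not overlap, or most abundant or most changed in their role, and others mostly as ranges. Of the other lists, called genes and the 2 most abundant are named, besides Lamtor3, Lamtor4 and Lamtor5. Alternatives were other pseudocounts, filters, scalings, variance models, sample weights, the block, limma-voom on recovered fragments, libraries left out and a stricter threshold.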

Additional observations from a re-analysis of the deposited data

How the results depend on the processing

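Of 756 log2 differences of members under the alternatives, 668 kept direction and side of the threshold, and 30 of 33 members kept their direction throughout. The exceptions were members near 0. Laptm4b turned to -0.0437 under median-of-ratios scaling, with and without the replicate block. Tmem192 turned to 0.031 with sample weights and to 0.0362 without both libraries numbered 1 (the same with the block). With single libraries left out, Laptm4b ran from -0.0231 to 0.0849, Tmem192 from -0.13 to 0.049 and Atp6v0c from -0.0131 to 0.16. The V0 median ran from 0.196 to 0.479.

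Counts follow as members higher, all genes higher, all genes lower and other lysosomal membrane genes called; the main counts were 2, 50, 76 and 3. They were 9, 374, 465 and 6 with the replicate block, 6, 240, 546 and 6 with the block and median-of-ratios scaling, and 13, 470, 360 and 10 with sample weights. Without both libraries numbered 1 they were 12, 383, 454 and 9. Without a filter they were 0, 9, 17 and 1, and at an adjusted p under 0.01 they were 0, 1, 5 and 0. Median-of-ratios scaling gave 0 members (39 genes higher and 105 lower), limma without the trend 0 and TPM scaling 1. With a mean FPKM of at least 5, and with limma-voom, 5 other lysosomal membrane genes were called (limma-voom: 75 genes higher, 96 lower). Added after the data were seen, the block gave 8, 308, 410 and 6 with TPM scaling and 9, 285, 484 and 6 with quantile normalization. Without both libraries numbered 1 it gave 11, 491, 614 and 9, and 1 other V-ATPase isoform gene.

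With any 1 library left out, 0 members were called (12 to 24 at an unadjusted p under 0.05), 0 to 57 genes were higher and 0 to 92 lower. Other lysosomal membrane genes called ran from 0 to 4. Where control replicate 3, GSK4112 replicate 2 or GSK4112 replicate 3 was left out, 0 genes were called in all. Some settings hold fewer samples or another number of genes, others hold the same, and the causes of the changed counts were not tested.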
